A study of Avicennia schaueriana with 18 samples.

Results

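The 200 most stable coding transcripts of the mangrove tree Avicennia schaueriana were taken from a table of raw RNA-seq counts. Each count was divided by the total of its library and multiplied by 1000000 to give its CPM, the count scaled to a library of that size. Of 30227 putative protein-coding transcripts among 49490 in the table, 10610 had a mean of at least 20 CPM over the 18 libraries. After 50 of these were left out because the study lists them as examples of site differences or as quantitative PCR targets, 10560 were ranked. The members were chosen by their coefficient of variation (CV, the SD over the 18 libraries divided by the mean), and the 200 with the lowest were kept. Every level, spread and difference among these 18 libraries is therefore selected on the values it describes. Calls from fits over all transcripts are printed for the members as part of that description and support nothing about them.

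The libraries came from leaves, stems and flowers of 6 adult flowering trees in the field. The subtropical group was trees St1, St2 and St4, sampled at 18.3 to 20.9 °C and 82 to 86% relative humidity. The equatorial group was trees Eq4, Eq5 and Eq6, sampled at 28.3 to 30.1 °C and 47 to 51% humidity. Each tree gave 1 library per tissue, so that each site had 3 per tissue, and Eq4 and St4 are unrelated trees. Site, date, temperature and humidity changed together and cannot be told apart in these samples. The labels name no treatment of these trees beyond the conditions of the field.

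A transcript kept at a near-constant share of the messenger RNA is of practical use because quantitative PCR reports a target relative to such a reference. Genes for protein turnover and translation, among them ubiquitin pathway enzymes and translation initiation factors, are commonly used in plants for this reason. Constancy is always relative to a scale: a transcript that is flat as a share of all reads need not be flat on a scale that corrects the libraries for their most abundant transcripts. None of the 200 members is paired with a gene by the study's tables used here, so they are named by their transcript identifiers and given no function.

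Library totals ran from 5055480 to 15802680 counts, with flowers lowest (median 8417760) and stems highest (median 14019900). Summed levels of 3 photosystem transcripts, PSBO1, PSAO and PSB27, were 12.4 to 90.3 CPM in flowers, 90.7 to 262 CPM in stems and 132 to 691 CPM in leaves. Those of 3 secondary wall cellulose synthase transcripts (CESA4, CESA8 and IRX3) were 50.03 to 129 CPM in flowers, 87.6 to 1892 CPM in stems and 5.03 to 59.1 CPM in leaves. The photosystem sums were 691, 649 and 516 CPM in subtropical leaves but 237, 132 and 210 CPM in equatorial leaves, which is within the range of the stems. Each leaf was above the stem of its own tree. The cellulose synthase sum of 1892 CPM was that of the Eq6 stem, and the next highest stem had 400 CPM. The Eq4 stem, at 87.6 CPM, was above every leaf but below the Eq4 and St2 flowers (117 and 129 CPM). No floral marker was at hand, so the flower label was not checked in this way. The flower library labelled Eq6 stood against its site label. Of 65 transcripts counted in every subtropical leaf and stem library and in no equatorial one, 53 were counted in it, against 3 in each of the Eq4 and Eq5 flowers and 48 to 59 in the subtropical flowers. Of 36 transcripts with the opposite pattern it held 6, against 31 in each of the other equatorial flowers and 1 to 2 in the subtropical flowers. The counts of members called in flowers, the flower site differences and the choice of the list are given with and without it.

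The CV of the members ran from 6.83 to 13.9% with a median of 12.7%, against a median of 34.3% over the ranked transcripts. As_16344, which had the lowest CV of all, had 43.2, 42.5 and 49.5 CPM in subtropical flowers against 43.7, 45.3 and 38.0 CPM in equatorial flowers. Its stems had 43.2, 44.7 and 46.8 CPM at the subtropical site and 46.0, 49.0 and 42.2 CPM at the equatorial site. Its leaves had 44.2, 38.6 and 44.2 CPM and 46.3, 41.6 and 44.9 CPM, in the same order of sites. The ranges overlapped between the sites in every tissue and among all 3 tissues, and the mean was 44.1 ± 3.01 CPM (SD, n = 18).

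Counting alone would give this transcript a CV of 4.81%, so that 49.6% of its variance was of the size that sampling of reads produces, the highest share among the members. The median share was 12.7% for the members and 1.77% for the ranked transcripts. These shares assume that reads are independent and cover counting error only.

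As_17359 followed with a CV of 7.90% and 27.8 to 37.7 CPM. Its flowers had 31.0, 35.7 and 34.9 CPM at the subtropical site and 33.8, 34.3 and 37.7 CPM at the equatorial site. Its stems had 33.3, 30.4 and 30.6 CPM and 32.0, 34.7 and 35.9 CPM, and its leaves 35.9, 31.6 and 33.1 CPM and 29.6, 27.8 and 35.0 CPM, in that order of sites. The lowest library was the Eq5 leaf and the highest the Eq6 flower, and all tissues overlapped.

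As_24693 had a CV of 8.72%, with 69.6 to 77.2 CPM in the 6 flowers, 69.9 to 85.1 CPM in the 6 stems and 57.8 to 86.9 CPM in the 6 leaves. Its extremes were both leaves, St4 at the bottom and Eq4 at the top. As_14065 (CV 9.19%) had 69.3, 66.4 and 69.7 CPM in subtropical leaves against 83.5, 83.3 and 84.0 CPM in equatorial leaves. Those leaf groups did not overlap, whereas its stems had 73.5, 76.2 and 70.1 CPM against 69.0, 75.5 and 72.7 CPM and did. Its flowers overlapped as well, with 66.1, 85.5 and 73.4 CPM against 76.6, 89.0 and 73.0 CPM. The leaf difference, subtropical minus equatorial, was -0.37 ± 0.17 (SE) on the log2 scale (edgeR quasi-likelihood test, adjusted p = 0.40). How many other transcripts separate the sites in this way was not counted. As_12632 (CV 9.57%) was the most abundant of the 5, at 162 ± 15.5 CPM (SD, n = 18), with its lowest value of 130.4 CPM in the St2 flower and its highest of 184 CPM in the Eq4 stem.

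**Figure D1:**
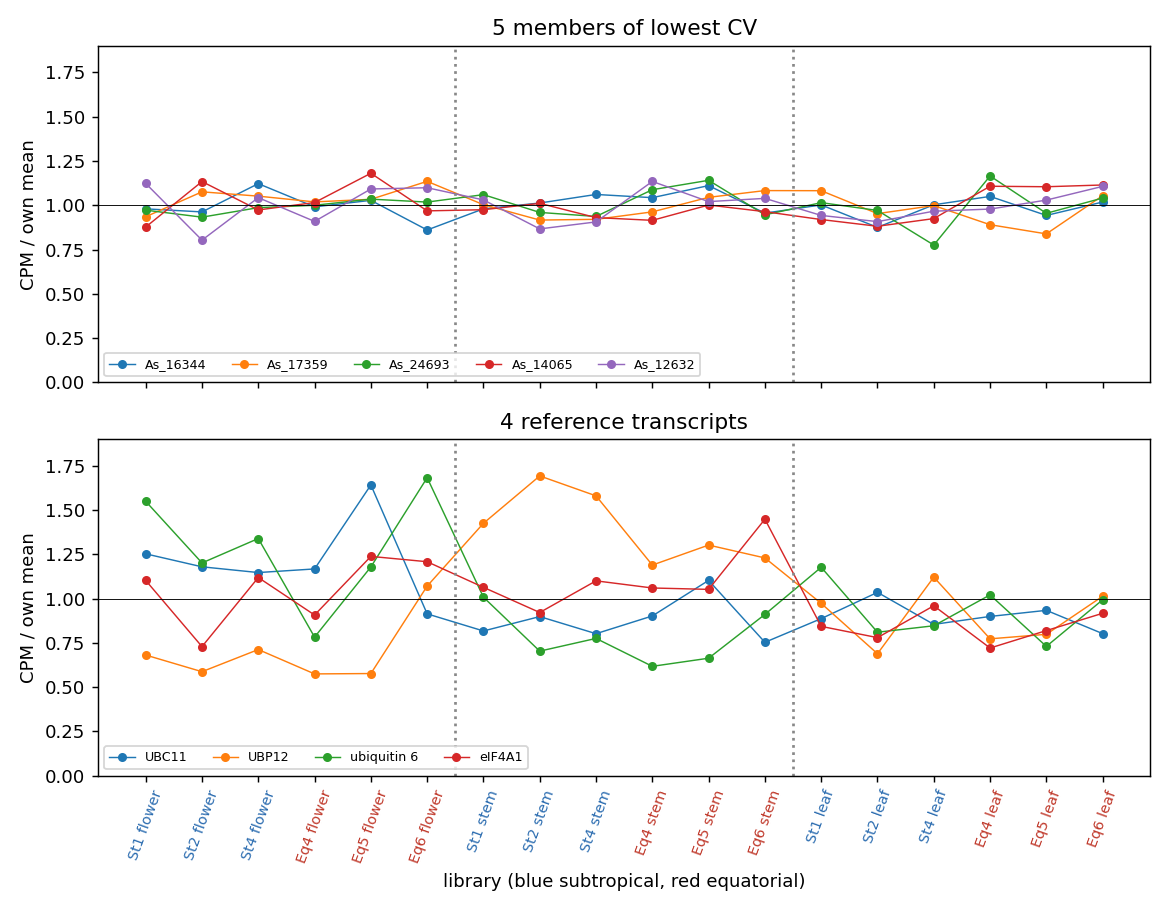
CPM of each transcript divided by its own mean over 18 libraries (vertical axis, linear from 0), for the 5 members of lowest CV (top) and the 4 reference transcripts of the study's quantitative PCR (bottom), with flowers, stems and leaves from left to right and the site given by the colour of the label. The members stay close to 1 in every library, and UBP12 lies above 1 in all 6 stems.

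Only 10 members had a CV under 10%, and the ranking was dense at the threshold. The last 3 inside it were As_14134 (13.888%), As_14190 (13.900%) and As_18507 (13.913%), and the first 3 outside it were As_15615 (13.922%), As_49378 (13.923%) and As_12420 (13.927%). As_18507 had a mean of 20.5 CPM, next to the minimum of the rule. The highest library of a member was under 1.5 times its lowest in 38 members, and these 38 were all the ranked transcripts of which that was true. In 1 member, As_12125, the ratio passed 2 (2.08). Among the ranked transcripts it passed 2 in 88.6%.

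Levels of the members ran from 20.1 to 872 CPM with a median of 54.0 CPM, against a median of 43.2 CPM for the ranked transcripts. There were 90 members under 50 CPM, 29 at 100 CPM or more and 4 at 200 CPM or more. They made up 0.876% of the ranked transcripts between 20 and 30 CPM, 2.89% of those between 50 and 100 CPM and 0.775% of those at 200 CPM or more. These are shares of reads that were not divided by transcript length, so that they do not order the transcripts by number of molecules.

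As_46140 was far above the rest. It had 691, 729.8 and 803 CPM in subtropical flowers against 646, 740.3 and 893 CPM in equatorial flowers. Its stems had 916, 951 and 862 CPM against 911, 1008 and 789 CPM, and its leaves 1069, 983 and 961 CPM against 965, 877 and 895 CPM. The highest value was in the St1 leaf and the lowest in the Eq4 flower, and the Eq6 flower was the only flower above the lowest leaf. The next in level were As_14502 (281 ± 35.9 CPM), As_12600 (254 ± 34.9 CPM), As_11342 (236 ± 31.8 CPM) and As_11133 (191 ± 24.3 CPM; SD, n = 18 each). As_11342 had 243 to 279.9 CPM in the 6 stems and 180.3 to 251 CPM in the 6 leaves, and these ranges overlapped only through the St1 leaf.

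**Figure D2:**
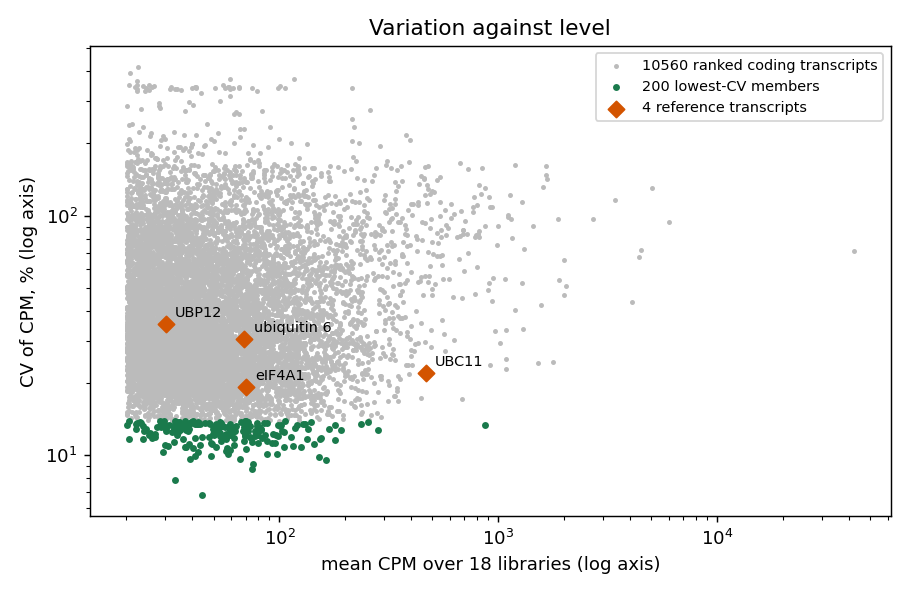
CV of CPM against mean CPM over 18 libraries (both axes logarithmic) for the 10560 ranked coding transcripts (grey), the 200 members (green) and the 4 reference transcripts (orange). The members form the lower edge of the cloud, from 6.83 to 13.9%, and the reference transcripts lie above it at 19.2 to 35.2%.

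The study picked transcripts similar to UBC11, a ubiquitin-conjugating enzyme, and to UBP12, a ubiquitin-specific protease, as quantitative PCR references for leaves, and its list of assays also holds ubiquitin 6 and the translation initiation factor eIF4A1. Their CV over the 18 libraries was 21.9% for UBC11 (As_43999), 35.2% for UBP12 (As_44296), 30.4% for ubiquitin 6 (As_18630) and 19.2% for eIF4A1 (As_19713). Set among the 10560 ranked transcripts these would stand at places 1984, 5455, 4424 and 1210. The rule left them out by name, and none would have been a member. The study reported stable expression of UBC11 and UBP12 in its leaf samples, where it used them. These CVs span leaves, stems and flowers and do not measure evenness within leaves. In the 6 leaves UBC11 had 373 to 481 CPM and UBP12 20.9 to 33.9 CPM.

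The primers of the 2 references are shown because they define what those assays measure, printed 5′ to 3′ as the study's list of oligonucleotides gives them.
UBC11 left: agggctccactgctctttaagg
UBC11 right: tgctggtggagtgtttcttgtg
UBP12 left: tgcgtgttcatgatgaggag
UBP12 right: tgctgattctggttcgctac

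UBP12 differed mostly among tissues. It had 20.6, 17.8 and 21.6 CPM in subtropical flowers against 17.4, 17.5 and 32.4 CPM in equatorial flowers, the last being the library labelled Eq6. Its stems had 43.1, 51.2 and 47.8 CPM against 36.0, 39.4 and 37.2 CPM, and its leaves 29.5, 20.9 and 33.9 CPM against 23.4, 24.2 and 30.7 CPM. Every stem was above every flower and every leaf. UBC11 had 425 to 763 CPM in flowers, 350.3 to 513 CPM in stems and 373 to 481 CPM in leaves, and its 5 highest libraries were all flowers. Among transcripts that carry loci with a signature of selection in the study, DEX1 (As_14393), required for pollen wall patterning in Arabidopsis thaliana, had a CV of 20.6% and a place of 1589. UGT78D2 (As_11340), an anthocyanidin glucosyltransferase, had 107% and a place of 9820. The study's examples of site differences with a mean of at least 20 CPM (39 transcripts) had CVs from 42.8% with a median of 90.0%. None of 337 non-coding transcripts at that level was as even as the least even member, and the lowest CV among them was 15.0%.

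The variance of log2(CPM + 1) was divided into tissue, site, their interaction, tree within site and the rest. In the median member, tissue took 18.6%, site 4.55%, site by tissue 6.98%, tree within site 25.2% and the residual 31.4%. The medians of the ranked transcripts were 56.7, 2.46, 2.72, 15.0 and 12.6% for the same sources. Of the degrees of freedom tissue has 2, site 1, the interaction 2, tree within site 4 and the residual 8, which is 11.8, 5.88, 11.8, 23.5 and 47.1% of them. The median share of tree within site in the members was thus close to its share of the degrees of freedom, while that of the residual, 31.4%, was below its 47.1%. Tree within site was the largest named source in 102 members, tissue in 70, site in 14 and the interaction in 14. Tree within site also has the most degrees of freedom of these sources, and the same counts over the ranked transcripts were not made. A low CV bounds the sum of all these sources, so that the members differ from the ranked transcripts here by construction.

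**Figure D3:**
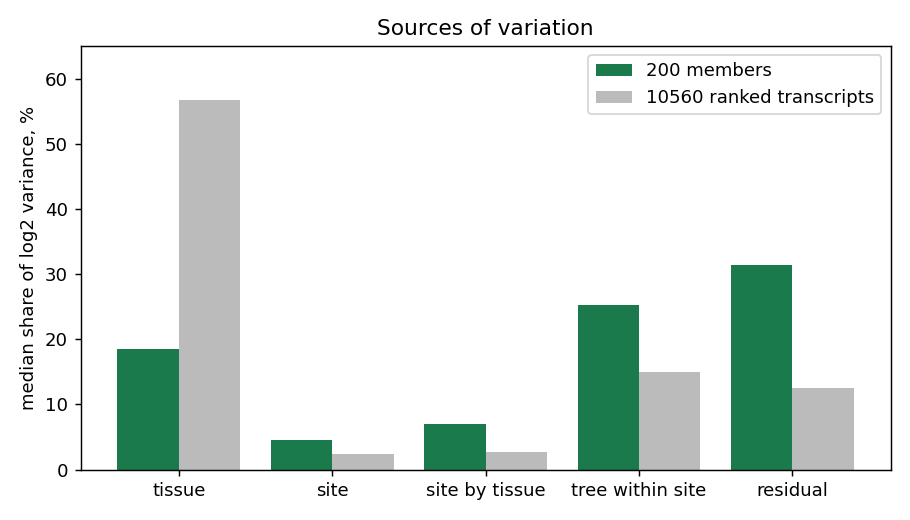
Median share of the variance of log2(CPM + 1) in percent (bars from 0) by source, for the 200 members (green) and the 10560 ranked transcripts (grey). Tissue takes 18.6% in the members and 56.7% in the ranked transcripts, and tree within site 25.2% and 15.0%.

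By mean CPM, 69 members (34.5%) were highest in flowers, 90 (45%) in stems and 41 (20.5%) in leaves. Over the ranked transcripts the shares were 32.0, 43.4 and 24.6%, near those of the members. The highest tissue mean was 1.01 to 1.30 times the lowest, with a median of 1.13. Subtropical libraries had the higher mean in 116 members and the lower in 84, with ratios from 0.868 to 1.16. The median ratio was 1.02 in the members and 1.02 in the ranked transcripts.

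The members did not scatter independently of each other. Together they took 1.21% of the counts in the Eq4 flower and 1.47% in the Eq5 stem, the ends of their range. The median member deviated from its own mean by -10.3% in the Eq4 flower and by -9.59% in the Eq5 leaf. It deviated by 7.90% in the Eq6 flower and by 7.74% in the Eq5 stem. The Eq4 flower was the lowest library of 51 members and the highest of none. The same counts over the ranked transcripts were not made, so this is not given as a trait of the members. The first component of the members' log2 deviations held 23.1% of their variance. Dividing every library by its median deviation of the members brought their median CV to 11.46%.

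Over the 18 libraries this shift of the median member ran with the composition of the library. Its correlation with the log2 factor of the trimmed mean of M-values (TMM), which edgeR computes to correct library sizes for composition, was r = 0.72 (Spearman's rho = 0.67), and with the share of counts in the 10 most abundant transcripts r = -0.73 (rho = -0.62). The 18 points share trees, sites and tissues and are not independent, and the shift and the factors come from the same libraries. The 10 most abundant transcripts held 17.1% of the Eq4 flower and 3.64% of the St2 stem, and the part of composition in the shift was not tested.

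**Figure D4:**
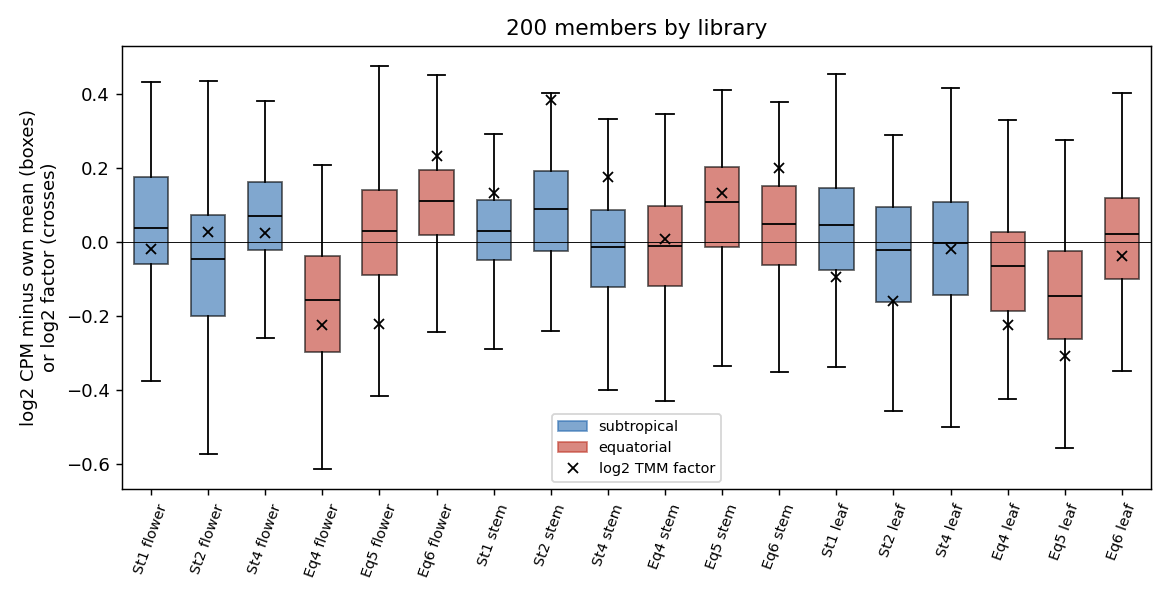
Log2 CPM of each of the 200 members minus its own mean, by library (boxes with the median and quartiles, whiskers to the last value within 1.5 times the box, blue subtropical and red equatorial), with the log2 TMM factor of the library (crosses). The median member is lowest in the Eq4 flower and highest in the Eq6 flower, and the crosses lie above 0 in all 6 stems and below 0 in all 6 leaves.

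The list itself was tied to the scale. When CPM was computed with TMM-scaled library sizes, 48 of the 200 members were chosen again, and with edgeR's median-of-ratios factors (RLE) 39 were. The median CV of the members was 15.1% with TMM and 15.5% with RLE, against 33.2 and 33.4% for the ranked transcripts. Of the 5 members of lowest CV, only As_17359 was chosen again with TMM, at 12.4%, while As_16344 had 13.9% and As_14065 18.8%. As_15578, near the end of the list at 13.8%, had 9.51% with TMM. The references moved as well, UBC11 to 30.2% and UBP12 to 25.7%.

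Leaving out the flower library labelled Eq6 kept 171 members, and leaving out all 3 libraries of one tree kept 143 to 158. There were 23 members that stayed on the list under both scalings, with the SD of log2(CPM + 1) in place of the CV, without the Eq6 flower and without each tree. The most even of them were As_24663 (66.0 CPM, CV 9.65%), As_45067 (97.3 CPM, 10.1%) and As_18036 (58.2 CPM, 10.2%), which are named here after their values were seen.

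Tissue differences were fitted with edgeR's quasi-likelihood test over 37761 transcripts in all 18 libraries with TMM scaling, and a transcript was called at a Benjamini-Hochberg adjusted p under 0.05. A count of members called is printed beside the share of all transcripts called, and nothing is read from it, because the rule used these contrasts. In bulk tissue, fewer cells of a type and less RNA per cell cannot be told apart. Between stems and leaves 46 of 200 members were called, all lower in stems, where 33.1% of all transcripts were called and 14.9% were called as lower. Between flowers and leaves 12 members were called, all lower in flowers, against 46.6% of all transcripts and 21.4% called as lower. Between flowers and stems 30 were called, all higher in flowers, against 37.4% of all transcripts and 19% called as higher. Without the Eq6 flower 61 members were called between flowers and stems, all higher in flowers (36.6% of all transcripts). Without it 8 were called between flowers and leaves, 3 higher and 5 lower in flowers (44.7% of all), so that the single direction of the 12 did not hold. DESeq2 called 16 between flowers and leaves, 5 of them higher in flowers (41.8% of all).

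These directions changed with the scale. With library totals in the fit, 141 of the 200 members and 7060 of the 10560 ranked transcripts were higher in stems than in leaves. With library totals in place of TMM, a setting added after the data were seen, 7 members were called between stems and leaves, and all 7 were higher in stems (37.4% of all transcripts were called). Between flowers and leaves 6 were called, 5 of them higher in flowers (44.4% of all), and between flowers and stems 4, all lower in flowers (38.8% of all). No member was called on both scales between stems and leaves or between flowers and stems, and 1 was between flowers and leaves. The change of scale moved the median of all transcripts by 0.31 on the log2 scale for stems minus leaves, 0.12 for flowers minus leaves and -0.19 for flowers minus stems. With libraries scaled by the members themselves, 3 members were called between stems and leaves (36.4% of all), 12 between flowers and leaves (45.7% of all) and 7 between flowers and stems (39.7% of all). TMM factors were 0.01 to 0.38 in stems and -0.31 to -0.02 in leaves, on the log2 scale.

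**Figure D5:**
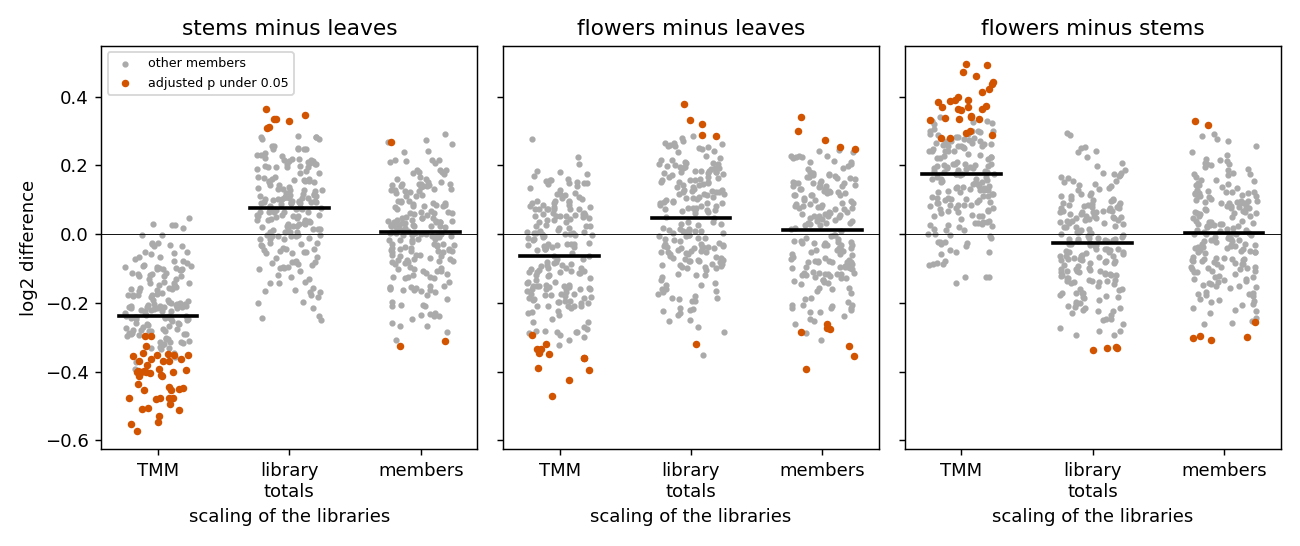
Log2 difference of each of the 200 members (points, median as a bar) in 3 tissue comparisons, with libraries scaled by TMM, by their totals or by the members themselves, and with members at an edgeR adjusted p under 0.05 in orange. For stems minus leaves the median is -0.24 with TMM and 0.08 with library totals.

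Single members show the same dependence. As_13589 had 37.2, 37.3, 32.8, 34.9, 39.8 and 35.9 CPM in the 6 stems (St1, St2, St4, Eq4, Eq5, Eq6) against 29.7, 29.6, 25.7, 26.5, 30.05 and 27.7 CPM in the leaves of the same trees. The groups did not overlap in CPM. Its log2 difference was nevertheless 0.05 ± 0.14 (SE) with TMM, the largest positive of the members, and 0.36 with library totals. As_17756 was at the other end, with 59.9, 75.3, 66.1, 54.99, 78.8 and 66.5 CPM in stems against 70.9, 78.7, 76.6, 76.2, 88.6 and 87.3 CPM in leaves. Each tree was lower in its stem than in its leaf, and the difference was -0.57 ± 0.11 (SE) with TMM and -0.25 with library totals.

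In flowers against leaves, As_11227 had the largest positive difference, 0.28 ± 0.13 with TMM and 0.38 with library totals, with 126 to 152 CPM in flowers against 92.5 to 118 CPM in leaves. The most negative was As_46140, at -0.47 ± 0.15 with TMM and -0.35 with library totals. In flowers against stems, As_24377 had 0.49 ± 0.13 with TMM and 0.29 with library totals, with 32.2 to 41.0 CPM in flowers against 26.9 to 33.7 CPM in stems. As_15578 had -0.14 ± 0.10 and -0.34, with 27.7 to 37.3 CPM in flowers against 35.6 to 43.1 CPM in stems, and only the Eq6 flower reached into the range of the stems.

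Between sites, edgeR called 0 of 200 members in flowers, 0 in stems and 0 in leaves, where 0%, 0.228% and 0.198% of all transcripts were called. At an unadjusted p under 0.05 there were 0 members in flowers, 2 in stems and 2 in leaves, and neither DESeq2 nor edgeR's exact test called a member in any tissue. Over all transcripts, 1654 had an unadjusted p under 0.05 in flowers, 3093 in stems and 3692 in leaves. DESeq2 called 77 of all transcripts in flowers (0.253%), 612 in stems (1.4%) and 1140 in leaves (3.24%). The exact test called 6 in flowers (0.0205%), 571 in stems (1.67%) and 966 in leaves (3.42%). Without the Eq6 flower, 0 members and 1.79% of all transcripts were called in flowers, with 1 member at an unadjusted p under 0.05. The interaction of site and tissue was called in 0 members (0 at an unadjusted p under 0.05) and in 0.0106% of all transcripts. The members' log2 differences had medians of -0.06 in flowers, -0.11 in stems and -0.03 in leaves, with 135, 161 and 120 of 200 lower at the subtropical site. Without the Eq6 flower the flower median was -0.16, with 160 lower. With library totals 88, 110 and 71 were lower in the 18 libraries. That scale moved the median of all transcripts by 0.06 in flowers, 0.09 in stems and 0.07 in leaves on the log2 scale, and no direction is read from the members' medians. The absence of called members is no measure of evenness.

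The widest site differences were nonetheless of a visible size in CPM. As_1006 had 41.4, 43.4 and 49.6 CPM in subtropical leaves against 31.6, 33.6 and 36.5 CPM in equatorial leaves, a log2 difference of 0.32 ± 0.17 (SE). As_11483 had 55.5, 45.5 and 42.6 CPM against 56.9, 59.0 and 67.5 CPM in the same groups, a difference of -0.43 ± 0.18. Both were picked as the extremes of 200, and neither pair of groups overlapped.

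In stems, As_44607 had 77.1, 93.5 and 84.8 CPM at the subtropical site against 69.1, 66.5 and 74.8 CPM at the equatorial site, at 0.18 ± 0.16. As_13978 had 27.2, 29.0 and 23.1 CPM against 35.8, 35.6 and 32.0 CPM, at -0.48 ± 0.19. In flowers, As_19488 had 41.9, 44.2 and 36.8 CPM against 26.7, 31.3 and 31.2 CPM, at 0.38 ± 0.20, and As_20847 had 32.7, 39.2 and 39.0 CPM against 40.6, 45.9 and 53.5 CPM, at -0.41 ± 0.18. The highest value of As_20847 was in the library labelled Eq6, and without that library the differences were 0.26 for As_19488 and -0.47 for As_20847. In the TMM fits to the 6 libraries of each tissue no member passed 0.5 in absolute log2 difference between sites. In the TMM fit to all 18 libraries the most negative stem difference of a member was -0.51. With DESeq2 on the 6 stem libraries it was -0.50. Without one tree the most negative differences of a member were -0.53 in flowers (without Eq6), -0.58 in stems (without Eq6) and -0.54 in leaves (without St1).

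Choices made on some libraries were tested in the others. The same rule was run on the 12 libraries of 2 tissues, and the 200 transcripts it gave were tested between sites in the third. Of those chosen on leaves and stems 0 were called in flowers, of those chosen on leaves and flowers 0 in stems, and of those chosen on stems and flowers 0 in leaves, with 2, 13 and 5 at an unadjusted p under 0.05. Of the ranked transcripts in the same fits, 0, 0.182 and 0.116% were called. At an unadjusted p under 0.05 there were 507 of 10520, 761 of 10456 and 1389 of 10383 ranked transcripts. So few were called anywhere that the 0 of each list says little about it. Their median absolute log2 difference was 0.13, 0.16 and 0.13, against 0.20, 0.20 and 0.24 for the ranked transcripts in the same fits. Each of these lists shared 85 transcripts with the members, and the same trees stood on both sides of the choice.

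The rule was also run on the 9 libraries of one site and the outcome tested among the 3 tissues of the other site, in trees that the choice had not used. Of 200 transcripts chosen on subtropical trees, 6 differed among the tissues of equatorial trees (edgeR, F test over 3 tissues), where 34.4% of all transcripts and 40.7% of the ranked ones were called. Of 200 chosen on equatorial trees, 24 differed among the tissues of subtropical trees, where 40.7% of all transcripts and 48.7% of the ranked ones were called. The count for equatorial trees was 12 without the Eq6 flower, 2 without St1, 12 without St4 and 0 without Eq4 or Eq5. Of all transcripts, 34.4% were called there without the Eq6 flower, 11.3% without Eq4 and 7.46% without Eq5. The count for subtropical trees was 37 without Eq6, 4 without St2 and 0 without St1 or St4. Of all transcripts, 29.7% were called there without St2, 24.0% without St1 and 20.1% without St4, against 40.7% with all trees. Why the counts of the chosen transcripts moved was not tested. Leaving out a tested tree leaves 6 libraries in the fit. Median CVs in the other site were 17.1 and 15.1%, against 9.65 and 11.52% in the libraries of the choice and 35.0 and 32.5% for the ranked transcripts in the other site.

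When a whole tree was left out of the choice, 74.2 to 85.3% of the 600 values of the chosen transcripts in its 3 libraries lay within 1.25-fold of their mean in the other trees, on the scale of CPM + 1. Of the values of the ranked transcripts, 38.7 to 47.3% did. The lowest share of the chosen was for Eq4 and the highest for St4. Values beyond 2-fold were 0% for St1, St2, St4 and Eq6, 0.167% for Eq4 and 0.333% for Eq5, against 15.2 to 19.9% among the ranked transcripts.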

How the data were processed

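RNA-seq libraries were made from 18 field samples. The deposited values are raw counts of reads per transcript, which the authors obtained by mapping reads that fit a single transcript of their de novo transcriptome with Bowtie (0.12.2 in the submitters' processing notes) and normalized afterwards in edgeR; replicates were not pooled. The members and lists were chosen with earlier results of these data known. CPM, CV and lists were computed from library totals in pandas (2.3.3, Python 3.11.15). Counts were fitted in edgeR (4.0.16, R 4.3.3) after filterByExpr with TMM factors, and DESeq2 (1.42.0) and edgeR's exact test were alternatives. Site was tested in the 6 libraries of a tissue and tissue in all 18, with adjusted p over all transcripts tested. Standard errors are the log2 difference over the root of F. The fits were tested on simulated data. Libraries of one tree carry the same tree name in the labels, which is where the pairing comes from; deviations of such libraries from their group means correlated at -0.02 to 0.40 over 37761 transcripts. Named transcripts were the 5 of lowest CV, the 5 of highest mean, 3 on each side of the threshold, the extremes of each comparison, the 4 references and the transcripts with loci under selection. Transcript sequences were not used here.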

Additional observations from a re-analysis of the deposited data

How the results depend on the processing

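The choice of the members kept 48 of 200 with TMM scaling, 39 with RLE scaling and 110 with a minimum of 50 CPM, and 143 to 158 without one tree. In the tissue counts that follow, each percentage is the share of all transcripts called in the same fit. The members called between stems and leaves (46, 33.1%) were 62 with DESeq2 (32.0%), 3 with scaling by the members (36.4%) and 7 with library totals (37.4%). They were 27 without a filter (25.7%) and 17 (without St2, 27.5%) to 29 (without Eq6, 27.3%) without one tree. Between flowers and leaves (12, 46.6%) they were 7 with RLE (46.5%), 6 with library totals (44.4%) and 6 without a filter (37.7%). Without one tree they were 3 (without Eq4, 37.6%) to 11 (without Eq5, 37.8%). Between flowers and stems (30, 37.4%) they were 63 with DESeq2 (34.3%), 7 with scaling by the members (39.7%), 4 with library totals (38.8%) and 61 without the Eq6 flower (36.6%). Without one tree they were 4 (without Eq4, 27.1%, or without Eq5, 27.7%) to 46 (without Eq6, 36.0%). With the tree as replicate block they were 57 (36.5%), 18 (49.7%) and 35 (41.6%) in the same order of comparisons, and the replicate block left the interaction at 0 (0.0583%). Of transcripts chosen on subtropical trees (6, 34.4%), 21 were called among equatorial tissues with DESeq2 (34.0%), 2 among the 100 of lowest CV (34.4%) and 12 without the Eq6 flower (34.4%). Without one tree 0 (without Eq4, 11.3%, or without Eq5, 7.46%) to 12 (without St4, 34.4%) were called. Of those chosen on equatorial trees (24, 40.7%), 10 were called with library totals (44.1%) and 11 among the 100 of lowest CV (40.7%). Without one tree 0 (without St1, 24.0%, or without St4, 20.1%) to 37 (without Eq6, 40.7%) were called. The cause of these changes was not tested. The shorter list holds fewer transcripts, and without a tree fewer libraries enter the choice or the fit. The site and interaction counts and the counts of held-out tissues were 0 under every setting run, without each tree included. The exact test was run with dispersions estimated without and, as a setting added later, with the design matrix; both called 0 members. Library totals was also added after the data were seen. Depth limits the least abundant members, which had as few as 83 counts in a library.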
